A study of Mus musculus with 9 samples.

Results

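The epidermis of K5H2 mice was compared with that of WT mice after UVB, over all protein-coding genes with a normalized count of 10 or more in at least 3 of the 9 libraries of the series. This rule took in 12968 of the 22028 protein-coding genes listed. Each genotype was represented by 3 mice of 8 weeks of age with resting (telogen) hair follicles. Their back skin was irradiated with UVB on 2 occasions at 20 mJ/cm2 over 3 days, the tissue was collected 24 h later, and keratinocytes were released with 0.25% trypsin for sequencing of polyadenylated RNA. The groups used are WT with UVB, K5H2 with UVB and, for the shared estimate of the spread and as values side by side, Hmga2-/- with UVB. No unexposed animals enter the comparison, so it describes genotypes after UVB and not the response to UVB. The name K5H2 is used as the labels give it; the labels do not say which allele, promoter or cell type it refers to, nor which part of Hmga2 the Hmga2-/- mice lack.

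UVB damages DNA in keratinocytes, which answer with growth arrest, inflammatory mediators and the keratins, envelope proteins and proteases of the repairing epidermis. Irradiated keratinocytes also send signals to melanocytes, in which receptors coupled to cAMP raise pigment production. Hmga2 encodes a chromatin protein that binds the minor groove of AT-rich DNA and is known mainly from embryonic and proliferating cells, and the title of the series ties it to cAMP signalling and to melanocyte stem cells.

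The depth behind the 6 libraries was about 32.9 to 41.5 M reads in genes for WT and 29.5 to 31.5 M for K5H2, and mitochondrial transcripts made up 1.19% to 1.69% and 0.983% to 1.87% of the normalized counts. The Hmga2-/- libraries, which enter the filter and the shared spread, had about 36.3, 28.1 and 15.4 M reads. Their mitochondrial shares were 2.15%, 0.502% and 0.279%. The 10 keratinocyte markers summed to between 2208651 and 3176606 in WT and between 2558165 and 2887488 in K5H2, so the labelled cell type was met in both genotypes. On the first principal component of the 6 libraries, which held 49.4% of the variance, WT 1 lay at -64.1, WT 2 at -7.9 and WT 3 at -27.8, against 35.1, 23.3 and 41.3 for K5H2 1 to 3. WT 1 thus stood farthest from K5H2 and WT 2 nearest. Hmga2 itself (chromosome 10, 120361275 to 120476469, GRCm38) was at 346, 11 and 56 in WT and at 4, 11 and 0 in K5H2. In Hmga2-/- it was listed at 3, 9 and 7. WT and K5H2 met at 11, and their log2 difference of -3.98 (SE 1.17) missed the threshold of the limma fit (adjusted p = 0.116; exact two-sided permutation p = 0.2, smallest possible 0.1). Without WT 1 it was -2.74, and without WT 2 it was -5.17 and past the threshold (adjusted p = 0.0389).

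K5H2 differed from WT in 156 of the 12968 genes (1.20%) by limma at a Benjamini-Hochberg adjusted p under 0.05, with 74 higher in K5H2 (0.571%) and 82 lower (0.632%). These shares are the background for every count below, and a gene is said to have risen or fallen only where it passed this test. The differences are on a scale of log2(normalized count + 1), which understates the change of genes with low counts. Over all 12968 genes the median log2 difference was -0.02, and 124 of the called genes differed by 1 or more. In all 156 the 3 K5H2 values lay outside the range of the 3 WT values, as they did in 3530 genes overall (27.2%). The number of calls moved strongly with single animals. Leaving out WT 1, 2 or 3 gave 33, 276 or 5 calls, and leaving out K5H2 1, 2 or 3 gave 11, 47 or 30. The direction of all 156 genes was the same in each of these fits, and Ccn2, Klhdc4, Oxtr and Trim12a were among the genes that passed in each of the 20 alternative fits.

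**Figure D1:**
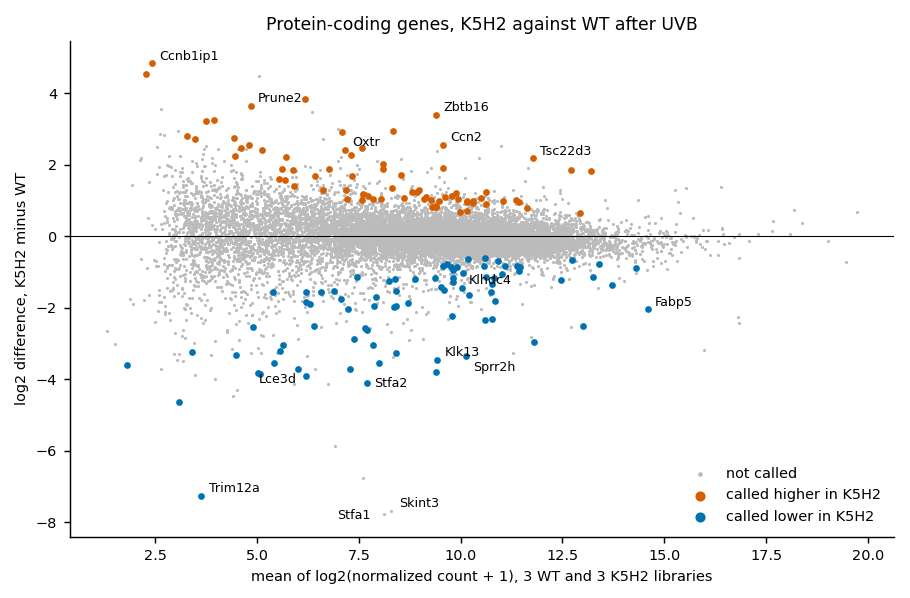
Log2 difference between K5H2 and WT (y axis) against the mean of log2(normalized count + 1) over the 6 libraries (x axis), 1 point per protein-coding gene. The 74 genes called higher and 82 called lower are coloured; Trim12a is the lowest of the called genes, at a height that depends on the 1 added before the log, while Stfa1 and Skint3 lie lower and were not called, with K5H2 2 far from the other K5H2 animals for both.

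Envelope proteins of the stressed epidermis were among the largest falls. Small proline-rich proteins are cross-linked into the cornified envelope and are induced in wounded and irradiated skin, and 4 of the 12 measured members fell in K5H2 with none rising. All 12 log2 differences were negative, with a median of -2.71 against -0.02 over all genes. Sprr1b stood at 33190, 10014 and 22763 in WT and at 2483, 6299 and 2623 in K5H2 (log2 difference -2.51, SE 0.51, adjusted p = 0.0468). Sprr2d stood at 1918, 517 and 1171 in WT and at 47, 181 and 151 in K5H2 (-3.26, SE 0.67, adjusted p = 0.0481). The lowest WT animal, WT 2, was still above the highest K5H2 animal for both genes. Sprr2e was at 347, 58 and 145 against 11, 14 and 20, and Sprr2h at 6095, 1753 and 4360 against 254, 600 and 282. In Hmga2-/- Sprr2d was at 134, 225 and 44, Sprr2e at 21, 37 and 16 and Sprr2h at 525, 1004 and 220. Each of these values was below every WT animal, so the low values were not particular to K5H2. Sprr1a, at 24992, 12966 and 16365 in WT and 5141, 8383 and 6055 in K5H2, did not pass (log2 difference -1.45, adjusted p = 0.0582). None of the 4 passed without WT 1, without WT 3, without K5H2 1 or without K5H2 3, with log2 differences from -3.49 to -2.13 in those fits. The Sprr2 genes are close copies, and the sources used here do not give how reads shared between them were counted.

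The 4 called genes of this family lie near each other on chromosome 3, and their promoters are shown because each holds a match to 1 loose pattern. The 250 bases before each start (RefSeq, GRCm38.p6) are Sprr1b at chr3:92438780-92439029 on the minus strand, and Sprr2d at chr3:92338890-92339139, Sprr2e at chr3:92351893-92352142 and Sprr2h at chr3:92385435-92385684 on the plus strand. They are written 5′ to 3′, with the letters TGANTCA, a loose form of the AP-1 motif in which N is any base, in capitals.
Sprr1b: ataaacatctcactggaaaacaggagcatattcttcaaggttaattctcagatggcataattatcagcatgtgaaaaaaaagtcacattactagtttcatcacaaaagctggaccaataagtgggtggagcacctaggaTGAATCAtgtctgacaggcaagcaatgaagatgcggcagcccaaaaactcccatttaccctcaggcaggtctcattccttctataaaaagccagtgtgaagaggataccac
Sprr2d: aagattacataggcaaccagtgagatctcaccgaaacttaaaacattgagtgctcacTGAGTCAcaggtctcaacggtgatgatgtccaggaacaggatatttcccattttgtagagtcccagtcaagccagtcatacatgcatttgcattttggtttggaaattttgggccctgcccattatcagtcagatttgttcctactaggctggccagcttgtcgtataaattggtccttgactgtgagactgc
Sprr2e: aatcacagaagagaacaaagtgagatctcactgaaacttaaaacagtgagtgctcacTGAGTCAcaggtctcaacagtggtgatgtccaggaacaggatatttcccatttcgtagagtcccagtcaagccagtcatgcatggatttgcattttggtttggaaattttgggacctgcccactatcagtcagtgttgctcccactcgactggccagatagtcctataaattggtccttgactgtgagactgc
Sprr2h: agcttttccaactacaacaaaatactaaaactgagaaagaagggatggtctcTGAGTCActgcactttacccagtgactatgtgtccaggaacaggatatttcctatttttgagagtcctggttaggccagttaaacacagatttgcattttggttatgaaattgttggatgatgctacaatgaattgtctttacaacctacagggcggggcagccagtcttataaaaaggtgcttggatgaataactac
AP-1 is the dimer of Fos and Jun proteins that is activated by UVB and wounding. Each of the 4 promoters holds 1 match, which begins 111 bases before the start in Sprr1b, 193 in Sprr2d and in Sprr2e, and 198 in Sprr2h. The match reads TGAGTCA in the Sprr2 promoters and TGAATCA in Sprr1b, so the letters are not the same in all 4. Sprr2d and Sprr2e are identical at 88.0% of the 250 positions and are thus not separate examples, while Sprr1b and Sprr2d are identical at 25.2%. Over the whole family 8 of the 12 measured members hold a match on either strand. The same letters are in 6.75% of the 32851 promoter windows of the table, in 4.90% of the 13020 windows of the measured genes, in 8 of 77 windows of genes that fell (10.4%) and in 7 of 71 windows of genes that rose (9.86%). The 8 windows of genes that fell include the 4 shown here, which were chosen because they hold the match. None of the 6 measured Lce3 promoters holds the motif. The Fos and Jun family and other immediate early genes are listed with the groups below and had no member that fell.

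Lce3 genes, late cornified envelope proteins that are silent in resting skin and switched on after barrier injury, were the other envelope group. Here 4 of the 6 measured genes fell and none rose, the median log2 difference was -3.26, and the 4 are direct neighbours on chromosome 3 (92944486 to 92993426, GRCm38, a span of 48.9 kb). Lce3d was at 602, 192 and 196 in WT and at 13, 21 and 21 in K5H2 (-3.91, SE 0.72, adjusted p = 0.0373). Lce3c was at 643, 405 and 344 in WT against 60, 64 and 57 in K5H2, the narrowest K5H2 spread of the cluster (-2.87, SE 0.54, adjusted p = 0.0373). In Hmga2-/- it was at 91, 579 and 164, so 1 animal of that genotype was in the WT range. Lce3e was at 271, 97 and 112 against 4, 23 and 15, and Lce3f at 277, 76 and 85 against 4, 9 and 12. In Hmga2-/- Lce3d was at 23, 131 and 14, Lce3e at 17, 64 and 19 and Lce3f at 11, 23 and 2, all below WT. Lce3a and Lce3b lay at 137 or less in every animal and did not pass, with log2 differences of -2.99 and -2.68. Of the 28 genes of the ordinary granular and cornified layers none passed, and their median was -0.71, which ran from -1.30 without WT 1 to -0.24 without K5H2 1. All 4 Lce3 calls were lost without WT 1, without WT 3 or without any 1 of the K5H2 animals (log2 differences -4.17 to -2.61). Chromosome 3, which also holds the Sprr genes, had 17 calls among 655 genes (2.60%), the highest share of any chromosome.

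Among proteases, their inhibitors and defence proteins a minority of members fell, and 1 inhibitor rose. Kallikreins are serine proteases that cut the links between corneocytes, and 2 of 10 measured fell. Klk13 went from 3878, 1324 and 2314 in WT to 79, 426 and 262 in K5H2 (-3.46, SE 0.61, adjusted p = 0.0298). Klk6 went from 16159, 6510 and 9422 to 838, 2340 and 1098 (-2.95, SE 0.53, adjusted p = 0.0335). All 10 kallikreins had negative log2 differences, with a median of -1.26, but Klk5 (-0.21) and Klk11 (-0.56) were close to 0. The membrane protease Tmprss11b (608, 128 and 164 in WT, 6, 27 and 28 in K5H2) and the trypsin-like Prss27 (908, 445 and 735 against 103, 241 and 202) fell as well. Pi15, a secreted protein of the cysteine-rich family, was at 1888, 229 and 419 in WT against 33, 49 and 46 in K5H2. Stfa2, a stefin that inhibits cysteine proteases, was at 1284, 440 and 1131 against 20, 195 and 29, the 1 call among 6 stefin A genes. Defb14, a beta-defensin, was low in both groups, at 133, 23 and 23 against 4, 0 and 0 (-4.64, SE 0.91, adjusted p = 0.0427), the 1 call among 15 S100 and antimicrobial genes. Of 13 gasdermin and inflammasome genes 1 fell. Gsdmc, a gasdermin, whose family forms membrane pores, was at 4370, 3214 and 4314 against 437, 1284 and 868 (-2.32, SE 0.42, adjusted p = 0.0361). In the other direction Timp3, an inhibitor of metalloproteinases, rose from 2630, 2238 and 2332 to 4957, 3579 and 3926 (0.78, SE 0.16, adjusted p = 0.0455), and it passed with 0 of the 9 libraries left out in turn. The list of matrix proteases and their inhibitors thus had 2 members lower and 1 higher of 27. WT 1 was the highest library for each of the 8 genes that fell and K5H2 2 the highest K5H2 library for 6 of them. None of the 8 passed without WT 1, WT 3, K5H2 1 or K5H2 3. In Hmga2-/- Klk13 was at 229, 356 and 115, Klk6 at 1087, 4207 and 1298 and Pi15 at 24, 49 and 14. Stfa2 was at 10, 20 and 5 there, Tmprss11b at 11, 12 and 2, Prss27 at 219, 385 and 225 and Gsdmc at 566, 866 and 288. Each of these Hmga2-/- values was below every WT animal, whereas Defb14, at 5, 30 and 12, overlapped with WT. Of the neutrophil markers, S100a8 and S100a9 are also keratinocyte genes, and the 6 markers together summed to 4745, 1119 and 3106 in WT and 288, 1164 and 724 in K5H2, with none called among the 4 tested. Of those 4, only Mmp9 had a positive log2 difference, at 29, 244 and 113 in WT against 97, 279 and 329 in K5H2. Ly6g was at 0 in every library and Csf3r at 3 or less. The part of neutrophils in the falls was not tested.

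**Figure D2:**
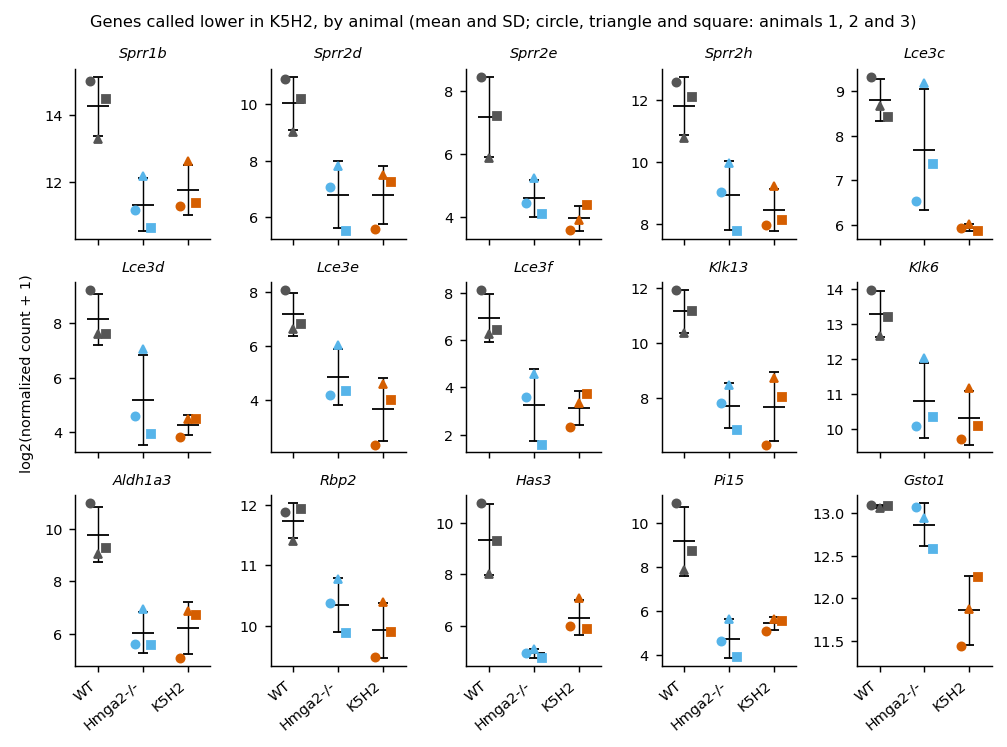
Log2(normalized count + 1) of 15 genes that fell in K5H2, by animal and genotype, with the mean and SD of 3 mice on that scale. In each panel the 3 K5H2 animals lie below the 3 WT animals; for Gsto1 the Hmga2-/- animals are nearer to WT than to K5H2, and for Lce3c Hmga2-/- 2 lies among the WT animals.

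Enzymes of retinoid and hyaluronan metabolism and lipid carriers followed. Aldh1a3, which oxidises retinaldehyde to retinoic acid, fell from 2011, 528 and 623 in WT to 33, 117 and 104 in K5H2 (-3.54, SE 0.61, adjusted p = 0.0287). Rbp2, a cellular retinol-binding protein, fell from 3769, 2713 and 3901 to 717, 1349 and 948 (-1.81, SE 0.27, adjusted p = 0.0171). They were the 2 calls among 19 retinoid genes. Lrat, which esterifies retinol for storage, was at 936, 152 and 216 in WT against 13, 49 and 18 in K5H2 without passing (adjusted p = 0.0578), and the receptors Rara, Rarg, Rxra and Rxrb differed by 0.41 or less. Of 10 hyaluronan genes the synthase Has3 fell, from 1755, 259 and 623 to 63, 135 and 58 (-3.04, SE 0.58, adjusted p = 0.0385). Has1 and Has2, the other synthases, did not pass. The fatty acid carrier Fabp5, which delivers ligands to the nuclear receptor PPAR delta, was at 73589, 34055 and 51234 in WT against 11175, 17550 and 9299 in K5H2. Ppard, the gene of that receptor, fell less, from 4540, 2713 and 3658 to 1862, 2117 and 1987 (-0.84, SE 0.18, adjusted p = 0.0493). Without WT 1, Fabp5 was the 1 of these 5 that still passed, and none passed without WT 3, K5H2 1 or K5H2 3. In Hmga2-/- Aldh1a3 was at 48, 122 and 47, Rbp2 at 1329, 1745 and 936 and Has3 at 30, 33 and 26. Fabp5 was at 11997, 12785 and 9849 there, and all of these Hmga2-/- values were below WT.

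In some other genes that fell, the Hmga2-/- values lay nearer to WT than to K5H2. Gsto1, a glutathione transferase of the omega class, was at 8774, 8572 and 8669 in WT against 2783, 3767 and 4894 in K5H2 (-1.22, SE 0.21, adjusted p = 0.0276). Rpl29, a protein of the large ribosomal subunit, was at 20713, 21540 and 22784 against 7240, 10463 and 8000 (-1.36, SE 0.22, adjusted p = 0.0254). In Hmga2-/- Gsto1 was at 8654, 7883 and 6125 and Rpl29 at 27783, 20065 and 15434, so neither group of Hmga2-/- values overlapped with K5H2. Ndufs5, a subunit of respiratory complex I, was at 1120, 1390 and 1096 in WT, 545, 539 and 306 in K5H2 and 1252, 1632 and 1219 in Hmga2-/-. Pnpla8, a mitochondrial and peroxisomal phospholipase, was at 2981, 2537 and 2602 in WT, 1017, 1193 and 1419 in K5H2 and 2159, 2155 and 2096 in Hmga2-/- (-1.17, SE 0.15, adjusted p = 0.00699). Gch1, the first enzyme of tetrahydrobiopterin synthesis, was at 707, 642 and 618 in WT, 153, 334 and 87 in K5H2 and 476, 777 and 755 in Hmga2-/-. Crlf2, a subunit of the receptor for thymic stromal lymphopoietin, was at 400, 461 and 543 in WT, 169, 235 and 185 in K5H2 and 440, 535 and 517 in Hmga2-/-. These 6 genes were chosen after their values were seen. Rpl29 has processed pseudogenes, among which its reads could have been divided, and none of 28 other cytosolic ribosomal protein genes passed (median -0.21, and 0.0080 without K5H2 3). Pnpla8 lost its call without WT 3 (adjusted p = 0.0527), Crlf2 without WT 3, K5H2 1 or K5H2 3, and the other 4 without at least 3 of the 9 libraries each.

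**Figure D3:**
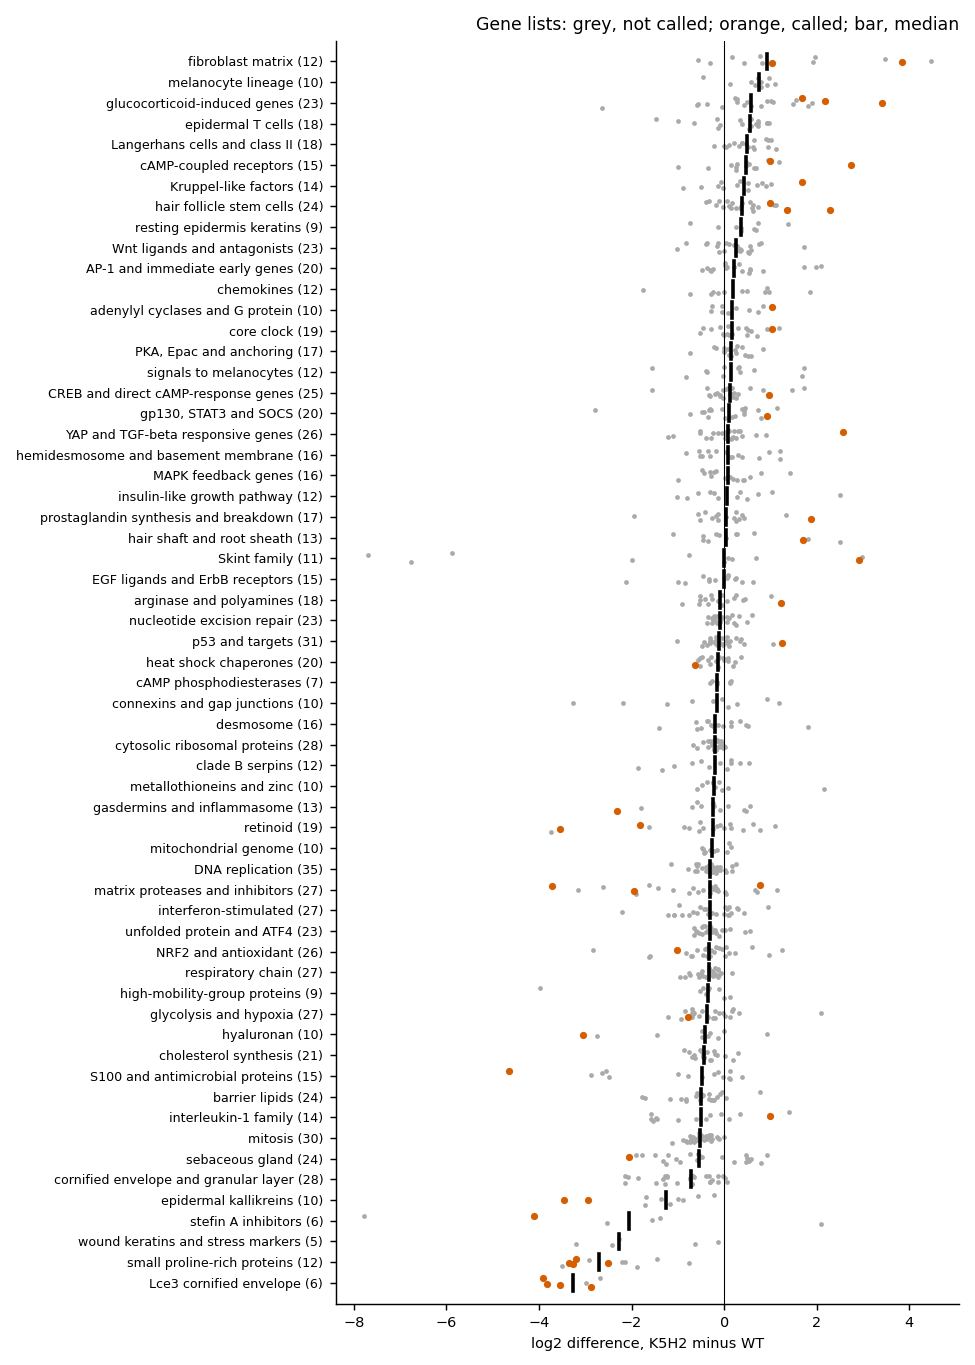
Log2 difference between K5H2 and WT (x axis) for the measured members of 60 gene lists (y axis, number of members in brackets), sorted by the list median (black bar). The lowest medians belong to Lce3 (-3.26), small proline-rich (-2.71) and wound keratin genes (-2.26), and the highest to fibroblast matrix (0.93), melanocyte (0.76) and glucocorticoid-induced genes (0.58).

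Genes that glucocorticoids induce were on the opposite side. Glucocorticoids act through the nuclear receptor encoded by Nr3c1, restrain inflammation in skin, and induce among others Tsc22d3 (GILZ), Zbtb16 (PLZF), Fkbp5 and Klf15. Of 23 measured genes of this kind 3 rose and none fell, 18 had positive log2 differences, the median was 0.58, and in 10 every K5H2 animal was above every WT animal (12.7% of all genes were). In 2 every K5H2 animal was below every WT animal (14.5% of all genes were). Tsc22d3, a leucine-zipper protein that blocks NF-kB and AP-1, was at 971, 2535 and 1790 in WT and at 8576, 8571 and 5608 in K5H2 (2.18, SE 0.35, adjusted p = 0.0232). Zbtb16, a zinc finger repressor, was at 117, 290 and 260 against 2605, 2413 and 1683 (3.40, SE 0.49, adjusted p = 0.0146). Klf15, a metabolic transcription factor, was at 85, 85 and 96 against 367, 299 and 213 (1.68, SE 0.25, adjusted p = 0.0171). K5H2 3 was the lowest K5H2 animal for all 3 genes. Fkbp5, a chaperone that lowers the affinity of the receptor, was at 1406, 1787 and 1822 in WT against 8556, 7048 and 3948 in K5H2, just short of the threshold (1.90, SE 0.42, adjusted p = 0.0567). Pdk4 (1.49), Ddit4 (1.05), Rasd1 (1.82), Klf9 (1.00), Per1 (0.92) and Sgk1 (0.58) were likewise above WT in every animal without passing, at adjusted p between 0.0546 and 0.112. The receptor gene Nr3c1 was at 2491, 2310 and 2112 against 2598, 2464 and 3456 and did not pass. Lcn2 (-2.63), Gpx3 (-0.56), Mt1 (-0.38), Mt2 (-0.59) and Cdkn1a (-0.04) had negative values. In Hmga2-/- the values were 4949, 3156 and 6385 for Tsc22d3, 270, 383 and 1160 for Zbtb16 and 142, 209 and 210 for Klf15. Zbtb16 lost its call without WT 3 or K5H2 1, and Tsc22d3 and Klf15 also without K5H2 2, while all 3 passed without WT 1.

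**Figure D4:**
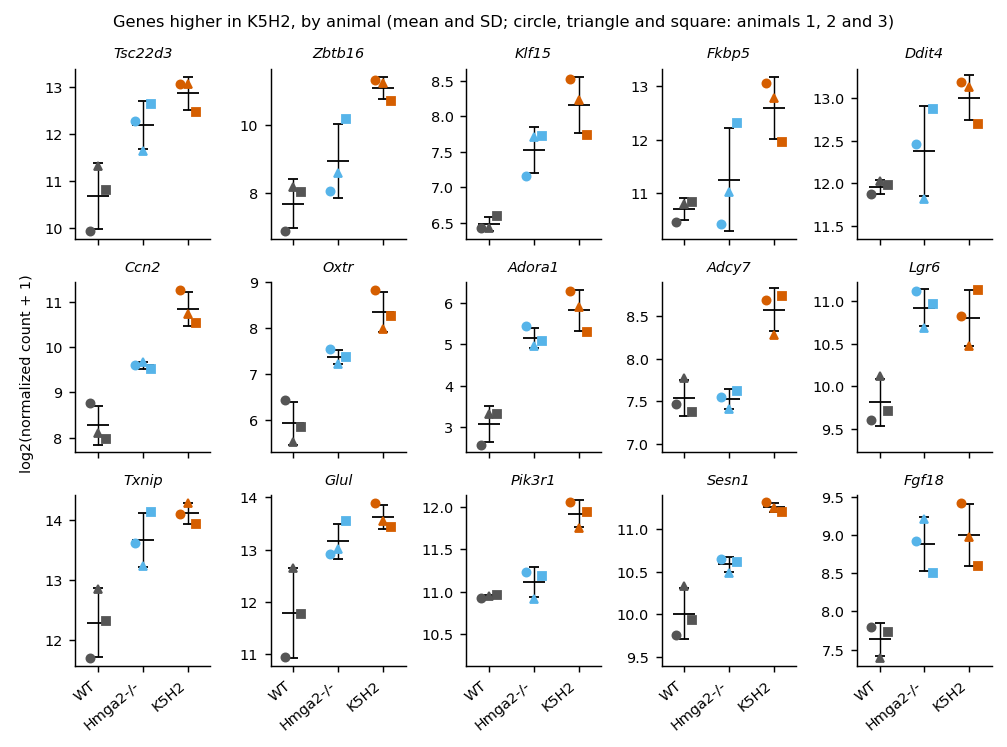
Log2(normalized count + 1) of 15 genes higher in K5H2, by animal and genotype, with the mean and SD of 3 mice on that scale; 13 were called, and Fkbp5 and Ddit4 were not. In each panel the 3 K5H2 animals lie above the 3 WT animals; Adcy7 and Pik3r1 are set apart from both other genotypes, while Lgr6 and Fgf18 in Hmga2-/- lie near K5H2.

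Along the cAMP pathway the calls were few and were made in receptors, in a cyclase and in a target of CREB. The receptor list, which beside receptors coupled to adenylyl cyclase holds the R-spondin receptors Lgr4, Lgr5 and Lgr6 and the Hedgehog component Smo, had 2 members higher and none lower of 15, with a median of 0.48. Of these calls Adora1 is coupled to the cyclase and Lgr6 is not known to be. Adora1, an adenosine receptor that inhibits the cyclase, was barely present in WT at 5, 9 and 9 and stood at 76, 58 and 38 in K5H2 (2.73, SE 0.40, adjusted p = 0.0146). Lgr6, an R-spondin receptor that marks stem cells of the upper hair follicle, was at 774, 1115 and 833 against 1809, 1414 and 2233 (1.00, SE 0.21, adjusted p = 0.0481). The receptor genes Oxtr and Ptgdr, outside that list, also rose. Oxtr, the oxytocin receptor, which acts mainly through Gq, was at 86, 45 and 57 in WT against 455, 251 and 309 in K5H2 (2.42, SE 0.29, adjusted p = 0.00511). Ptgdr, the prostaglandin D2 receptor that raises cAMP, was at 54, 66 and 66 against 174, 172 and 120 (1.30, SE 0.25, adjusted p = 0.0392), and Ptgds, which makes that prostaglandin, was at 24, 26 and 23 against 111, 89 and 79 (1.88, SE 0.27, adjusted p = 0.0141). Among 10 adenylyl cyclase and G protein genes, Adcy7 rose, from 175, 218 and 165 to 413, 310 and 426 (1.03, SE 0.20, adjusted p = 0.0424), and in Hmga2-/- it was at 186, 168 and 196. Adcy9 (0.84) and Adcy6 (0.74) were above WT in every animal without passing, whereas Gnas (-0.05) and Adcy3 (-0.04) lay near 0. None of 17 genes of protein kinase A, Epac and their anchors passed (median 0.15, and 0.29 without K5H2 2), nor any of 7 phosphodiesterases (median -0.15, range -0.32 to 0.16; the median was 0.0030 without WT 1). Of 25 CREB genes and direct cAMP targets Sik1, a kinase that restrains the CREB coactivators, rose from 1194, 1714 and 1646 to 2429, 3268 and 3253 (0.98, SE 0.19, adjusted p = 0.0424). Nr4a1 (104, 97 and 86 against 354, 505 and 183; adjusted p = 0.0891) and Gem (56, 178 and 116 against 284, 323 and 275; adjusted p = 0.0781) did not pass, and Creb1, Crtc1, Crtc2 and Crtc3 differed by 0.16 or less. Of Adora1, Lgr6, Oxtr, Ptgdr, Adcy7 and Sik1, only Oxtr passed with any 1 library left out, and Oxtr and Adora1 passed without WT 1.

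Genes of the melanocyte lineage had a median of 0.76 over 10 measured and no call, and the median was 0.45 without K5H2 3 and 1.09 without WT 1. Mitf, the master regulator of the lineage, was at 151, 124 and 111 in WT against 329, 237 and 260 in K5H2 (1.09, SE 0.27, adjusted p = 0.0698). Kit, the receptor of stem cell factor, was at 68, 48 and 36 against 99, 81 and 105, also without overlap (adjusted p = 0.363). The pigment enzyme genes overlapped between the groups: Dct was at 172, 101 and 97 against 183, 143 and 300, and Tyrp1 at 115, 54 and 43 against 125, 64 and 176. K5H2 2 had the lowest value of both within its genotype. The 10 melanocyte markers summed to 420 to 653 in WT and 663 to 1111 in K5H2. In bulk RNA more cells of a type and more RNA per cell cannot be told apart. None of 12 keratinocyte signals to melanocytes passed. Kitl, the ligand of Kit, was at 1130, 899 and 924 against 1132, 1006 and 802 (-0.01), Edn1 at 55, 100 and 67 against 101, 113 and 124 (0.64, adjusted p = 0.246), and Wnt10b at 26, 152 and 133 against 293, 224 and 299 (1.72, adjusted p = 0.15).

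Calls among hair follicle and matrix genes were few and went in both directions. Of 24 hair follicle stem cell genes 3 rose and none fell: Aspn, a small proteoglycan, from 100, 69 and 52 to 404, 266 and 398 (2.28, SE 0.40, adjusted p = 0.0298), Fgf18, a growth factor of the resting follicle, from 221, 167 and 211 to 682, 501 and 387 (1.36, SE 0.25, adjusted p = 0.0373), and Lgr6. Krt15, a keratin of the bulge, was at 31111, 75995 and 66044 in WT against 164810, 127828 and 128342 in K5H2 without passing (1.37, adjusted p = 0.105). The bulge markers Cd34 (-0.03), Lgr5 (0.14) and Sox9 (0.16) were close to 0. Ccn2, a secreted matricellular protein induced by YAP and TGF-beta, was at 433, 273 and 249 in WT against 2447, 1705 and 1467 in K5H2 (2.56, SE 0.24, adjusted p = 0.00132), and it passed with each of the 9 libraries left out (2.35 to 2.81). Hmga2-/- lay between them at 777, 808 and 727. Ccn2 was the 1 call among 26 YAP and TGF-beta responsive genes, whose median was 0.09. Ccn1, its relative, was at 275, 370 and 425 against 637, 726 and 390 (0.69, adjusted p = 0.223). No other member of the list passed. Matrix genes outside these lists were called in both directions, and those given were chosen after their values were seen. Ddr2, a collagen receptor, fell from 1309, 1171 and 1417 to 360, 449 and 572 (-1.52, SE 0.23, adjusted p = 0.0188), with Hmga2-/- at 387, 227 and 246. The fibulins Fbln1 (1731, 1149 and 1268 against 579, 616 and 603) and Fbln2 (712, 307 and 382 against 151, 146 and 109) and the collagen uptake receptor Mrc2 (1118, 991 and 1109 against 651, 618 and 594) fell too, while Fbln7 rose from 29, 29 and 28 to 102, 88 and 75. With each of the 9 libraries left out, Ddr2 passed in 5 fits, Fbln7 and Mrc2 in 4 each, and Fbln1 and Fbln2 in 3 each. Abi3bp and Col20a1 also rose, with log2 differences of 1.82 to 2.24 and 1.48 to 1.71 over those fits. They passed in 6 and 4 of the fits. Col4a2, which rose too, is given below.

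Collagen genes differed widely between the K5H2 animals. Col1a2, a chain of type I collagen, was at 17, 23 and 15 in WT and at 1069, 236 and 80 in K5H2 (3.85, SE 0.78, adjusted p = 0.0463). Col1a1 (19, 42 and 16 against 1389, 271 and 51) and Col3a1 (9, 16 and 1 against 684, 153 and 34) followed the same order of K5H2 animals, with 1 highest and 3 lowest, and did not pass. Sparc, a collagen-binding protein, was more even, at 508, 921 and 674 against 1383, 1529 and 1300 (1.04, SE 0.21, adjusted p = 0.045), and Col4a2, a basement membrane collagen, was at 131, 137 and 155 against 681, 434 and 480 (1.88, SE 0.33, adjusted p = 0.0298). In Hmga2-/- Col1a2 was at 360, 183 and 94, Col1a1 at 289, 208 and 84, Col3a1 at 182, 105 and 35 and Sparc at 1255, 1102 and 1406. Each of these Hmga2-/- values was above every WT animal, so the higher values of these genes were not particular to K5H2. Of the 9 dermal fibroblast markers, 5 passed the filter, and 2 of them were called, Col1a2 and Sparc. The 9 summed to 569, 1019 and 712 in WT, to 4602, 2263 and 1500 in K5H2 and to 2166, 1648 and 1642 in Hmga2-/-. Their part in these rises was not tested. Without K5H2 1 the log2 difference of Col1a2 was 2.86 and not past the threshold, and without WT 3 none of Col1a2, Sparc and Col4a2 passed.

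Other called genes with roles in metabolism, stress and the clock are given singly. Txnip, which curbs glucose uptake and thioredoxin, was at 3331, 7364 and 5129 for WT against 17657, 19925 and 15723 for K5H2 (1.82, SE 0.29, adjusted p = 0.0232). Glul, glutamine synthetase, was at 1952, 6394 and 3488 against 15165, 12023 and 11120 (1.85, SE 0.36, adjusted p = 0.0398). WT 1 was the lowest library for both Txnip and Glul. Pik3r1, the regulatory subunit of PI3 kinase, had narrow WT values of 1945, 1971 and 1997 and stood at 4265, 3438 and 3928 in K5H2 (0.97, SE 0.14, adjusted p = 0.0146), against 2411, 1924 and 2332 in Hmga2-/-. Sesn1, a sestrin that restrains mTORC1, was at 865, 1290 and 979 against 2553, 2430 and 2359 (1.25, SE 0.16, adjusted p = 0.00699), and it was the 1 call among 31 p53 genes and targets, whose median was -0.10 (-0.021 without K5H2 3). The clock gene Per2 was at 310, 433 and 411 against 657, 754 and 954, the 1 call among 19 core clock genes. Of the 19, 13 had positive values, and the median was 0.16 (0.40 without WT 2). In 8 every K5H2 animal was above every WT animal, against 12.7% of all genes, with none the other way, against 14.5%. Per1 (0.92), Per3 (0.71) and Tef (0.58) were among the 8 without passing, while Arntl (0.05), Clock (-0.29) and Dbp (0.09) overlapped with WT. On the other side Pgk1, an enzyme of glycolysis, fell from 16554, 12428 and 14023 to 7964, 9791 and 7227 (-0.79, SE 0.17, adjusted p = 0.0494), the 1 call among 27 genes of glycolysis and hypoxia. Sesn1 lost its call without WT 3 alone, Pik3r1 without WT 3 or K5H2 1, and Txnip, Glul and Per2 without WT 1 and 4 or more of the other libraries.

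Calls among cytokine signalling genes were single ones. Il1r1, the signalling receptor of interleukin 1, was at 477, 536 and 487 in WT against 948, 981 and 1063 in K5H2 (1.00, SE 0.16, adjusted p = 0.0217), the 1 call among 14 genes of the interleukin 1 family. Lifr, a receptor chain for leukaemia inhibitory factor, was at 896, 988 and 870 against 2106, 1633 and 1526 (0.92, SE 0.16, adjusted p = 0.0288), the 1 call among 20 genes of gp130, STAT3 and SOCS signalling, of which 9 had negative values. The cytokine receptor subunit Crlf2, described above, fell. Nfkbiz, a nuclear NF-kB cofactor, was at 1117, 715 and 674 against 1528, 1581 and 1763, and Arg1, which turns arginine into ornithine, at 424, 787 and 703 against 1244, 1955 and 1221. None of these 4 passed without WT 3, K5H2 1 or K5H2 2. Several genes with low values in WT also rose. Prune2, a large protein with a BCH domain, went from 5, 14 and 5 to 151, 88 and 77 (3.64, SE 0.47, adjusted p = 0.00758). Nrcam, a neuronal adhesion molecule, went from 11, 12 and 6 to 60, 49 and 59, and Kif5c, a kinesin of neurons, from 11, 17 and 15 to 123, 67 and 61. Dpyd, which degrades pyrimidines, went from 9, 16 and 8 to 71, 42 and 99, and Xpnpep2, a membrane aminopeptidase, from 41, 122 and 99 to 320, 455 and 613. Creg2 (6, 2 and 5 against 36, 47 and 59) and Pgm5 (5, 6 and 1 against 43, 31 and 49), a relative of phosphoglucomutase found at adhesion sites, were at 8 or less in all Hmga2-/- animals. Both reached the filter of 10 in K5H2 animals alone, so they had to be higher there to be tested, and without a filter Creg2 passed (adjusted p = 0.0334) and Pgm5 did not (adjusted p = 0.0639). In all, 6 of the 156 calls entered in this way. Most of these counts are low, and of these 7 genes none passed without WT 3 and Prune2 alone passed without K5H2 3.

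Some genes were listed at 0 or near it in K5H2 animals, and here the K5H2 mice also differed from each other. Trim12a (chromosome 7, 104299894 to 104315466, GRCm38), a member of the tripartite motif family, was listed at 0 in all 3 K5H2 animals, against 76, 218 and 212 for WT and 298, 247 and 358 for Hmga2-/- (adjusted p = 2.8e-05). It was the 1 gene of the 12968 at 5 or less in every K5H2 or every WT animal and at 30 or more in every animal of the other genotype. Its neighbour Trim5 (104263386 to 104288094), whose primate counterpart senses retroviral capsids, was at 5, 18 and 15 in WT and also listed at 0 in all 3 (adjusted p = 0.048). Trim34a, next to Trim5, was at 32, 111 and 105 against 11, 19 and 18 (-2.14, adjusted p = 0.0572), whereas Trim12c, on the other side of Trim12a, was at 110, 298 and 269 against 324, 388 and 384. Trim12a and Trim12c are close copies, so reads could have been divided between them. Klhdc4, a kelch-domain protein (chromosome 8), was lower in every K5H2 animal without being absent, at 686, 646 and 559 against 1458, 1720 and 2027 for WT and 1719, 1846 and 1920 for Hmga2-/- (-1.45, SE 0.16, adjusted p = 0.00295). In the other direction Ccnb1ip1, known for meiotic recombination, was listed at 0 in all WT and all Hmga2-/- animals and was at 68, 16 and 19 in K5H2 (adjusted p = 0.0175, and 0.0049 without a filter). It too met the filter through K5H2 alone, the genotype in which it is high. Trim12a and Klhdc4 passed with each of the 9 libraries left out, Ccnb1ip1 lost its call without WT 1, WT 3, K5H2 1 or K5H2 3, and Trim5 kept its call only without Hmga2-/- 3.

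Members of the Skint family, which are made by keratinocytes and thymus epithelium and select the gamma-delta T cells of the epidermis, split the K5H2 animals. These genes were chosen after their values were seen. Skint3 was at 3190, 5765 and 5001 in WT and at 3, 2648 and 0 in K5H2, Skint9 at 922, 3479 and 2550 against 2, 2086 and 0, and Skint4 at 534, 1459 and 1005 against 4, 770 and 0. K5H2 2 was in or just below the WT range for each, and K5H2 1 and 3 were at or near 0. Stfa1 on chromosome 16 (5779, 2331 and 5124 against 4, 657 and 1) and Ear2 on chromosome 14 (26, 319 and 118 against 0, 129 and 0) had the same split. Counted over all 12968 genes, 6 were at 5 or less in 2 K5H2 animals and at 100 or more in the third, in 5 of them K5H2 2, against 0 such genes in WT and 1 in Hmga2-/-. The sixth, Slc15a2, was high in K5H2 3 and also near 0 in WT 3 and Hmga2-/- 2. None of these 6 passed the test, at adjusted p between 0.0542 and 0.733. Skint1, which gives the family its known role, was at 427, 1214 and 833 against 570, 925 and 818. Skint8 rose, from 29, 81 and 48 to 268, 328 and 569 (2.90, SE 0.41, adjusted p = 0.0138), and Skint7 was at 11, 135 and 56 against 237, 345 and 562 (2.99, adjusted p = 0.0624). The stefin relative BC117090 likewise was higher in K5H2, at 258, 58 and 110 against 487, 526 and 509, without passing (adjusted p = 0.0907), while Stfa1 and Stfa2 were lower. Skint8 lost its call without WT 3 or without K5H2 3. The strain background of the animals is not given in the labels, and which of these patterns go with it was not tested. Epidermal T cell genes, 18 measured, had no call and a median of 0.55, which was 0.098 without WT 1.

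**Figure D5:**
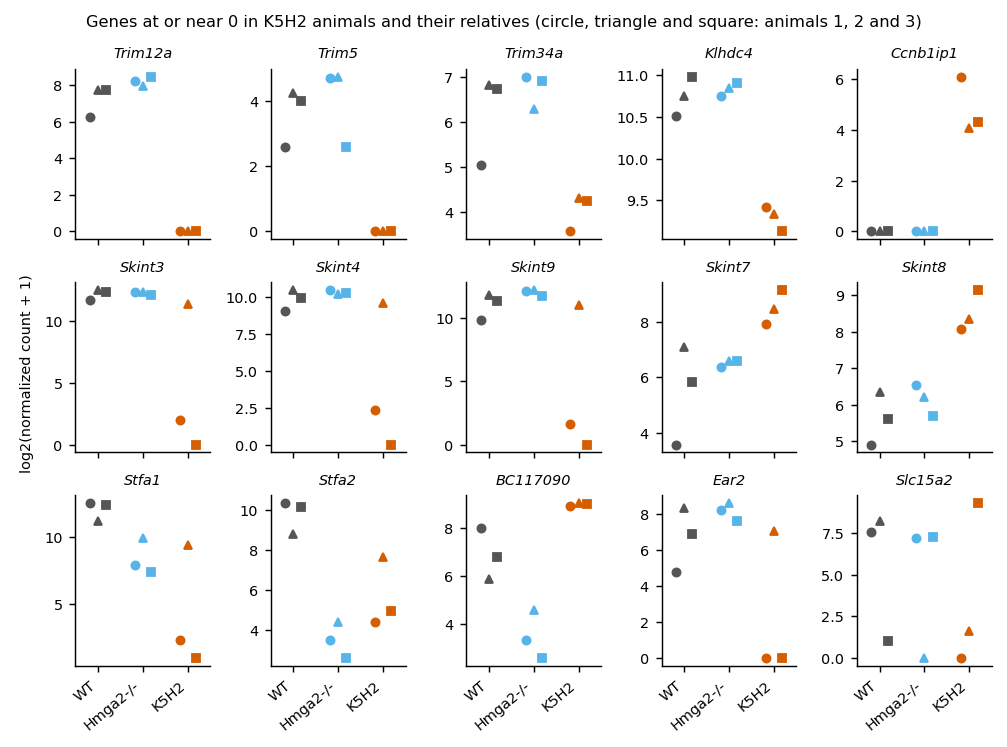
Log2(normalized count + 1) by animal for genes at or near 0 in K5H2 animals and for their relatives. Trim12a and Trim5 are at 0 in all 3 K5H2 animals, Skint3, Skint4, Skint9, Stfa1 and Ear2 are near 0 in K5H2 1 and 3 but not in K5H2 2, and Skint7, Skint8 and BC117090 are above WT in all 3.

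The remaining lists gave few or no calls. All 5 wound keratins and stress markers had negative log2 differences without passing: Krt6a was at 512372, 129331 and 304316 in WT against 47600, 93225 and 29875 in K5H2 (-2.42, adjusted p = 0.061), and Krt16 at 350701, 147171 and 316526 against 58999, 92718 and 27089 (-2.26, adjusted p = 0.061). None of 20 AP-1 and immediate early genes passed, and 15 of them had positive values, among them Atf3 at 30, 111 and 65 against 298, 413 and 143 (2.09, adjusted p = 0.0924). Mitosis genes (30 measured, median -0.53) and DNA replication genes (35 measured, median -0.30) had no call, with 29 and 30 negative values. In 17 of the mitosis genes and 19 of the replication genes every K5H2 animal was below every WT animal, against 14.5% of all genes. Of 23 nucleotide excision repair genes, which remove UVB lesions, none passed and the median was -0.09 (0.083 without K5H2 3). Respiratory chain subunits other than Ndufs5 (27 measured, median -0.34, -0.18 without K5H2 3), cholesterol synthesis (21 measured, median -0.44, -0.24 without WT 1) and barrier lipid genes (24 measured, median -0.49, -0.27 without K5H2 1) had no call either. Neither did interferon-stimulated genes (27 measured, median -0.30), whose median ran from -0.57 without WT 1 to -0.074 without WT 3. Negative values numbered 26 for the respiratory chain, 18 for cholesterol synthesis, 22 for barrier lipids and 16 for interferon-stimulated genes. Every K5H2 animal was below every WT animal in 12, 8, 12 and 2 of them, in that order, against the same 14.5% of all genes. The other HMG genes, relatives of Hmga2, did not pass, and Hmga1 was at 4126, 3712 and 3941 against 2673, 3301 and 3051 (-0.39, adjusted p = 0.319). Langerhans cell genes (18 measured, median 0.50) had 16 positive values and no call, with their 8 markers summing to 10126, 32287 and 19895 in WT and 20945, 30754 and 29152 in K5H2. WT 1 was the lowest library there, and without it the median over the 18 genes was 0.07.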

How the data were processed

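RNA of epidermal keratinocytes from 9 mice was sequenced, with 3 animals per genotype. Trim Galore, STAR, DESeq2 and GRCm38 are named in the submitters' processing notes, without versions; the sources used here do not give settings or the strand used in counting. The authors' deposited table lists 55536 genes. Its library columns are, per the file headers, normalized counts, here whole numbers after rounding, so the unit was taken as a score rather than raw reads. The authors' deposited mean, also a score, served to find what 1 read is worth per library, and from that the approximate depth. This step rests on 99 to 637 genes per library. Depths are approximate, and no counting intervals are given. The authors' fold changes and p-values were not used, and 0 columns belonged to another series.

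Values were tested with limma 3.58.1 in R 4.3.3 (limma-trend, two-sided) on log2(value + 1), with all 9 libraries in 1 fit, a mean per genotype and no covariate. The 14695 genes of any type with 10 or more in at least 3 libraries were fitted, p-values were Benjamini-Hochberg adjusted over all of them, and protein-coding genes were reported. Called means an adjusted p under 0.05. Adjusted p-values in the text come from this fit. The fit was tested on simulated data first, and its dependence on scaling, filter, pseudocount, moderation, the genes and libraries fitted and a replicate block is in the closing part.

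Named genes are Hmga2, the 15 largest rises and falls among called genes without overlap and with a mean of 30 or more (clone-type names left out), up to 3 called members of each of 60 lists, up to 2 members by smallest p of a list without calls, genes near 0 in 1 genotype, and runs of neighbouring called genes. Some were left out for length. Other genes named were chosen after their values were seen. Of 1168 list names, 1152 matched by symbol. The members and lists were chosen with earlier results of these data known, and lists are described without a test. Promoters were matched by symbol for 10181 of the 12968 genes. Python 3.11.15, pandas 2.3.3, numpy 2.4.6, scipy 1.17.1 and matplotlib 3.10.9 were used.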

Additional observations from a re-analysis of the deposited data

How the results depend on the processing

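The number of protein-coding genes called between K5H2 and WT was 156, with 74 higher and 82 lower. It stayed within 1.5 times that under both rescalings, both other pseudocounts (126 and 200) and robust moderation. It was 93 (44 higher, 49 lower) without a filter, 99 (48 and 51) with a filter of 50, 74 (38 and 36) with the 6 libraries of WT and K5H2 alone, 100 (49 and 51) with protein-coding genes alone and 56 (38 and 18) without a trend. With each library left out it ran from 5 to 276 (3 to 118 higher, 2 to 158 lower). A fit with fewer libraries has fewer degrees of freedom, and beyond that the cause was not tested. All 156 kept their direction under every alternative that gave a value, and the filter of 50 gave one for 143 of them. The log2 difference of Hmga2 ran from -5.17 to -2.74 with a library left out and passed without WT 2 alone. The mitochondrial gene mt-Co3, at -0.43 and not called, ran from -0.69 to 0.048 with a library left out and was positive without K5H2 1. With the replicate number as a block (replicate block) 97 genes were called, 42 higher and 55 lower, and 83 of the 156 were among them. The labels do not say that numbers pair animals. The deviations of same-numbered WT and K5H2 libraries had correlations of 0.18, 0.03 and -0.06, and those of differently numbered libraries ran from -0.19 to 0.17. With 3 animals per genotype these values cannot decide whether the numbers pair animals. The mice are separate animals per the design text, and p-values cover 3 of them per genotype.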
